A study of Homo sapiens with 7 samples.

Results

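Chromatin loops listed for CTCF, for the cohesin subunit RAD21 and for ZNF143 in the same cells were examined. A wild-type CTCF loop was taken as a member when both its anchors, extended by 5 kb on each side, overlapped the matching anchors of a wild-type RAD21 loop and of a wild-type ZNF143 loop by at least 1 bp. This held for 1726 of 19313 CTCF loops (8.94%). They are called shared loops here. Of the other CTCF loops, 7242 coincided with a RAD21 loop only, 737 with a ZNF143 loop only and 9608 with neither. The 7 lists of the study held 135475 loops in all.

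CTCF is a zinc-finger protein that binds DNA in a fixed orientation and stops the cohesin ring as it extrudes chromatin, so that pairs of bound CTCF sites become the bases of a loop. RAD21 is the cleavable subunit that closes the cohesin ring. ZNF143 is a zinc-finger activator known for binding near transcription start sites, and it has been found together with CTCF and cohesin at many loop anchors. A loop listed for all 3 proteins is therefore one for which each antibody gave a loop between about the same places. With the 5 kb extension these can be neighbouring places rather than the same ones.

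The assay was HiChIP, in which neighbouring chromatin ends are ligated inside fixed nuclei and the ligated chromatin is then enriched with an antibody. All cells were HEC-1-B, a human uterine adenocarcinoma line, or lines made from it. Each group had 1 library. Wild-type cells were assayed for ZNF143, CTCF and RAD21, and ZNF143KO cells (ZNF143 deleted) for CTCF and RAD21. CTCF-AID cells were assayed for ZNF143 at 0 h and at 24 h of auxin (IAA). CTCF-AID cells carry CTCF with an auxin-dependent degron and express the TIR1 receptor, and the labels' protocol gives a final auxin concentration of 500 µM. The labels do not say whether the deleted and the tagged lines are single clones. Since there were no replicates, nothing was tested between groups and no p-value is given. Shares carry 95% Wilson intervals and differences between shares 95% Newcombe intervals, which cover counting error within these libraries only. Neighbouring loops share anchors, so the loops are not independent and the true uncertainty is larger.

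Each list gives a whole-number count per loop, taken as the number of supporting read pairs, and lists no count below 2. The wild-type lists held 19313 (CTCF), 16788 (RAD21) and 11981 (ZNF143) loops, and the ZNF143KO lists 15597 (CTCF) and 10804 (RAD21). The ZNF143 lists of CTCF-AID cells held 40405 loops at 0 h and 20587 at 24 h. A longer list gives a loop more chances to be found, and shares found were not adjusted for this. List totals of the counts ran from 33460 to 143119. These totals are not library depths, which are not given in the sources used here. A loop that is missing from a list is therefore not listed, rather than shown to be absent. In both CTCF-AID lists even counts prevailed (89.5% and 86.8% of loops, against 68.1% to 74.6% in the other 5), so counts were compared between those 2 lists but not read on the same scale as the others. Whether a read pair was counted from both of its ends in those lists is not given in the sources used here, so a count of 2 there may stand for less evidence than elsewhere. The wild-type CTCF and RAD21 lists and both CTCF-AID lists have 8 columns, and the wild-type ZNF143 list and both ZNF143KO lists have 7. In the ZNF143KO comparisons the layout thus changed together with the genotype and any effect of how the lists were made cannot be told apart from that of the deletion. Removal of ZNF143 or CTCF protein could not be checked from these lists.

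The shared loops held a larger part of the cohesin and CTCF signal than of the loops. They made up 8.94% of the CTCF loops and 20.3% of the CTCF list's total count (16371 of 80726). They matched 1665 RAD21 loops, which were 9.92% of that list and 21.0% of its count. For ZNF143 the 1516 matching loops were 12.7% of the list and held 12.6% of its count. The shared loops were thus among the better supported CTCF and RAD21 loops, and ordinary among ZNF143 loops.

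The same was seen in the counts per loop. CTCF counts of the shared loops ran from 2 to 401 with a median of 5 (quartiles 3 and 10), against a median of 2 (2 and 4) over the whole CTCF list. RAD21 counts, taken from the best supported matching loop, ran from 2 to 432 with a median of 6 (3 and 11), against 3 (2 and 4) over the whole RAD21 list. ZNF143 counts ran from 2 to 89 with a median of 2 (2 and 4), the same quartiles as over the whole ZNF143 list. CTCF loops that coincided with RAD21 only had a median CTCF count of 3, and those that coincided with ZNF143 only had one of 2. These differences in count describe the members and were not tested, since being listed 3 times favours strong loops.

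RAD21 gave the highest of the 3 counts at 730 shared loops (42.3%), CTCF at 555 (32.2%) and ZNF143 at 192 (11.1%), and the highest count was tied at 249. Only 19 shared loops (1.10%) reached 10 counts in all 3 lists, and 88 (5.10%) had a count of 2 in each. CTCF and RAD21 counts went together across the shared loops (Spearman's rho 0.593, n = 1726), whereas CTCF and ZNF143 counts were nearly unrelated (rho 0.129). Both values describe loops that share anchors within 3 libraries. The median ratio of ZNF143 to CTCF count was 0.500 with quartiles of 0.286 and 1, below the ratio of 0.611 between the totals of the 2 lists. The median ratio of RAD21 to CTCF count was 1 with quartiles of 0.714 and 1.67, and the list totals had a ratio of 0.922.

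**Figure D1:**
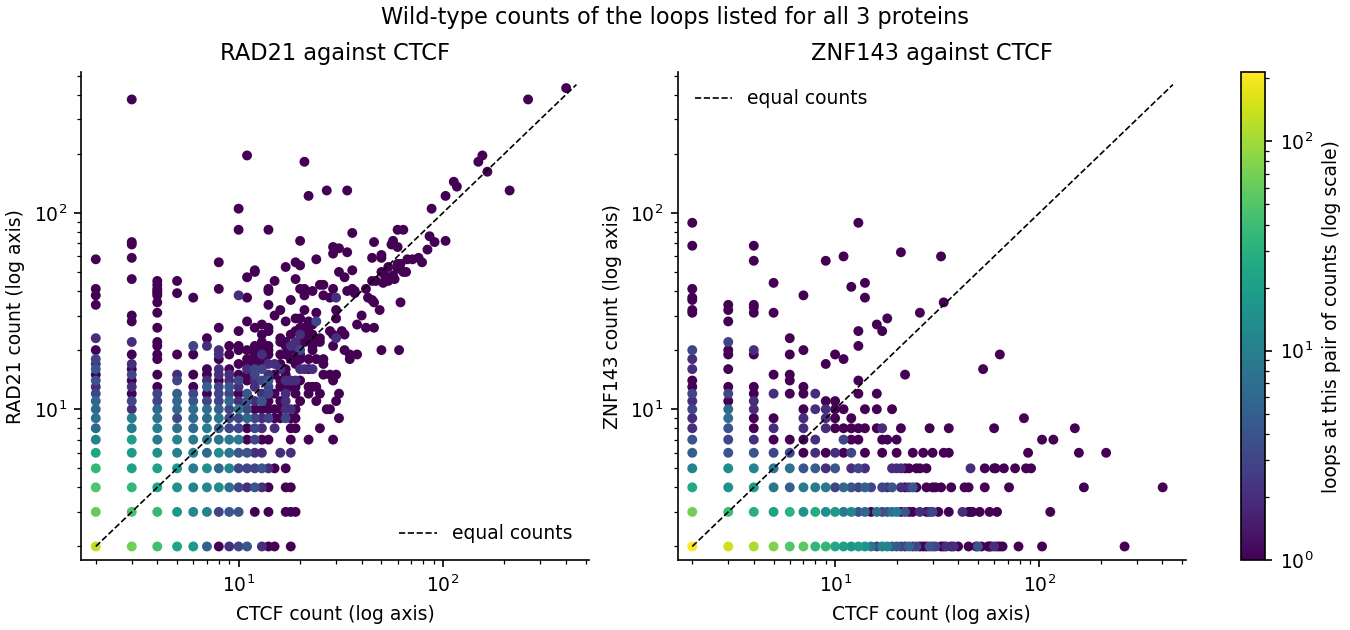
Wild-type counts of the 1726 shared loops on log axes, RAD21 against CTCF on the left and ZNF143 against CTCF on the right, each point coloured by the number of loops at that pair of counts. RAD21 counts follow CTCF counts along the line of equal counts up to 401 and 432, while ZNF143 counts lie between 2 and 4 at 86.4% of loops with a CTCF count of 2 and at 72.8% of those with 20 or more.

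The 5 kb extension lets neighbouring CTCF loops match the same strong partner, so a weak CTCF loop can be given a high RAD21 or ZNF143 count. The best supported RAD21 partner was shared with another member at 722 shared loops (41.8%) and the best supported ZNF143 partner at 716 (41.5%). At 406 shared loops (23.5%, 21.6 to 25.6) both anchors had identical coordinates in all 3 lists, a subset looked at after the data were seen. There the median counts were 6 for CTCF, 6 for RAD21 and 2 for ZNF143, with a rho of 0.742 between CTCF and RAD21 and 0.254 between CTCF and ZNF143. A ZNF143 count above the CTCF count was found at 23 of these 406 loops (5.67%), against 294 of all 1726 (17.0%). For a RAD21 count above the CTCF count the numbers were 155 (38.2%) and 825 (47.8%), so the lead of RAD21 was smaller there.

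The anchor intervals themselves recurred between lists. Between a shared loop and its best RAD21 partner, 68.6% of 3452 anchor pairs had the same midpoint and 83.5% lay within 1 kb. For the best ZNF143 partner the shares were 55.0% and 75.98%. Without any extension 1126 CTCF loops met the rule (5.83%), another 125 needed more than 4 and up to 5 kb and were just inside it, and 111 needed more than 5 and up to 6 kb and were just outside.

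Membership became more common with the strength of the CTCF loop. Of CTCF loops with a count of 2, 3.65% (3.30 to 4.05) were shared loops, and the share was 7.95% at counts of 3 to 4, 17.1% at 5 to 9 and 30.7% at 10 to 19. At 20 counts or more, 158 of 331 CTCF loops were shared loops (47.7%, 42.4 to 53.1). Another 51.7% of the loops at that strength coincided with RAD21 only.

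The spans of the shared loops, measured between anchor midpoints, ran from 20.1 to 1301 kb with a median of 107.6 kb (quartiles 52.6 and 197.1 kb). The median was 156.8 kb for loops that coincided with RAD21 only, 169.5 kb for CTCF loops in neither other list and 89.1 kb for those that coincided with ZNF143 only. Over the whole RAD21 and ZNF143 lists the medians were 160.4 and 144.5 kb, so the shared loops were shorter than the loops of each of the 3 lists as a whole. Against loops coinciding with RAD21 only, the median was lower in every class of CTCF count. The medians of shared loops and of loops coinciding with RAD21 only were 118.6 and 176.6 kb at a count of 2, 113.1 and 141.5 kb at 5 to 9, and 98.1 and 129.5 kb at 20 or more. Against CTCF loops in neither other list this did not hold at 10 to 19 counts, where the medians were 92.0 kb for shared loops and 82.6 kb for the 37 others, nor at 20 or more, where there were 2 others with a median of 39.6 kb.

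Read the other way, 13.04% (11.9 to 14.3) of CTCF loops of 20 to 50 kb were shared loops, 10.04% (9.22 to 10.9) of those of 100 to 200 kb, 6.54% (5.92 to 7.22) of those of 200 to 500 kb and 2.87% (2.19 to 3.74) of those of 500 kb to 1 Mb. Only 8 of 381 CTCF loops of 1 to 2 Mb were shared. The share that coincided with ZNF143 only was likewise lower in each longer class, from 6.54% at 20 to 50 kb to 1.05% at 500 kb to 1 Mb and 0.262% beyond. The share that coincided with RAD21 only did not follow this order and was 31.8% at 20 to 50 kb, 40.1% at 100 to 200 kb and 36.2% at 500 kb to 1 Mb.

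**Figure D2:**
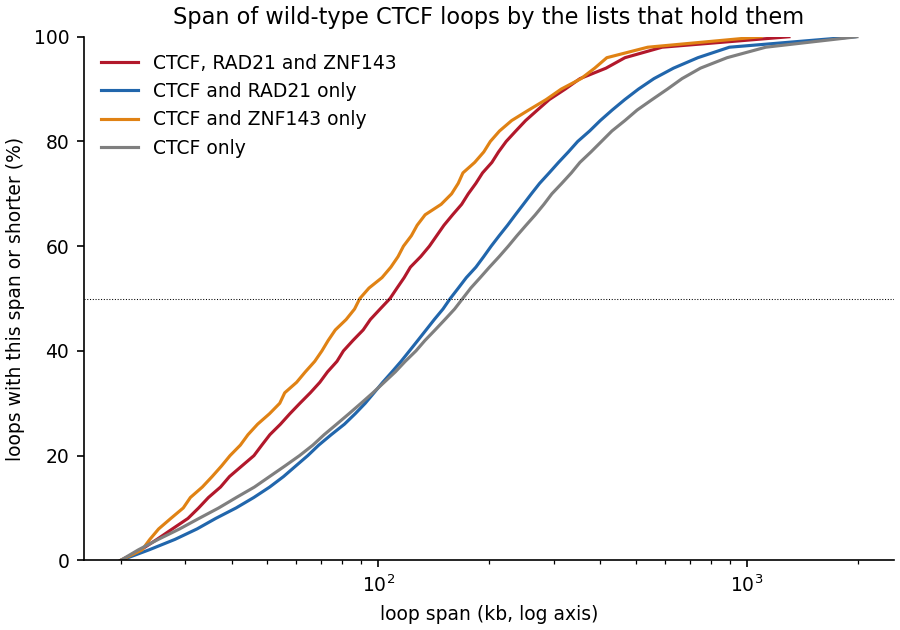
Cumulative share of wild-type CTCF loops against span (kb, log axis) for the 4 classes of loop, with a dotted line at the median. The curves of the shared loops and of the loops coinciding with ZNF143 only reach the median at 107.6 and 89.1 kb, left of the curves for loops with RAD21 only (156.8 kb) and with neither (169.5 kb).

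The ends of the shared loops fell on 2394 distinct anchors, which were 14.1% of the 16948 anchors of the CTCF list. Of the 2394 anchors, 1697 served 1 shared loop, 485 served 2 and 212 served 3 or more. In all, 1262 shared loops (73.1%) had an anchor in common with another shared loop, and 99.4% had one in common with some other CTCF loop. Over the whole CTCF list 95.6% of loops had an anchor in common with another, so common anchors were the rule in that list. Joined through common anchors, the shared loops formed 809 separate groups, 464 of them of 1 loop. Anchor width did not set them apart, with a median of 1840 bp against 1872 bp for loops coinciding with RAD21 only.

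The group with the most loops held 32 shared loops between 19 anchors on chromosome 12, from 56130248 to 56896169 (coordinates as deposited, counted from 1, in hg19 per the submitters' processing notes). The anchor that served most shared loops lay on chromosome 3, from 50309918 to 50312663, and took part in 10, of which 5 ran to each side over 25.2 to 84.4 kb. The CTCF counts of these 10 loops ran from 3 to 30, the RAD21 counts from 2 to 37 and the ZNF143 counts from 3 to 8. All 10 were listed again in each of the 4 lists from ZNF143KO and CTCF-AID cells, with counts of 4 to 22 for CTCF and 2 to 25 for RAD21 in ZNF143KO cells, and of 6 to 22 and 2 to 36 for ZNF143 at 0 h and 24 h of auxin. Next came an anchor on chromosome 17, from 46100314 to 46105226, with 9 shared loops, of which 7 were found for CTCF in ZNF143KO cells and 8 and 4 for ZNF143 at 0 h and 24 h. Anchors were not assigned to genes, since no annotation of that build was used here.

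The chromosomes differed in how many of their CTCF loops were shared. The share was 15.3% (13.4 to 17.6) on chromosome 19, 14.5% (12.7 to 16.5) on chromosome 17 and 12.8% (11.1 to 14.7) on chromosome 12. It was 1.27% (0.433 to 3.67) on chromosome 18, 2.83% (1.50 to 5.29) on chromosome 13, 2.97% (1.44 to 5.99) on the X chromosome and 3.51% (2.02 to 6.03) on chromosome 4. By number, chromosome 1 held most (211), followed by chromosomes 3 and 17 (186 each), 19 (174) and 12 (168).

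Most shared loops were found again for CTCF after deletion of ZNF143. A loop was called found in a later list when both its extended anchors overlapped the anchors of a loop there. In the CTCF list of ZNF143KO cells 1341 of 1726 shared loops were found (77.7%, 75.7 to 79.6), against 39.1% of all wild-type CTCF loops. The share was 52.3% (51.2 to 53.5) of loops coinciding with RAD21 only, 41.1% (37.6 to 44.7) of those with ZNF143 only and 21.99% (21.2 to 22.8) of those with neither. Shared loops thus exceeded the loops with RAD21 only by 25.4 percentage points (23.0 to 27.6), and by 20.97 to 29.1 points under the 8 alternatives for which it was computed.

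Shared loops were also stronger, so the classes were compared between loops of similar CTCF count. The gap in points was present up to 19 counts. It narrowed as both shares neared their ceiling, with 93.9% and 85.1% found at 10 to 19 counts, so the narrowing says little about strength itself. At a count of 2 the shares found were 61.3% of shared loops and 37.0% of loops with RAD21 only, a difference of 24.3 points (18.8 to 29.6). The difference was 23.5 points (18.7 to 28.0) at 3 to 4 counts, 15.5 points (10.99 to 19.6) at 5 to 9 and 8.85 points (4.64 to 12.6) at 10 to 19. At 20 counts or more nearly all loops of both classes were found, 157 of 158 and 167 of 171, and the difference of 1.71 points had an interval (-1.49 to 5.26) that includes 0. By span it lay between 17.3 points at 20 to 50 kb and 41.4 points (27.6 to 52.1) at 500 kb to 1 Mb. Its interval included 0 only at 1 to 2 Mb, where there were 8 shared loops.

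The RAD21 list of ZNF143KO cells gave lower shares in the same order, and was also shorter (10804 loops against 15597 for CTCF). There 1211 shared loops were found (70.2%, 67.96 to 72.3), against 30.1% of all wild-type CTCF loops and 46.6% (45.5 to 47.8) of those with RAD21 only. The difference of 23.5 points (21.1 to 25.9) was 21.9 points (16.3 to 27.3) at a CTCF count of 2, 12.6 points (7.48 to 17.6) at 3 to 4, 18.8 points (14.2 to 23.1) at 5 to 9 and 12.2 points (7.08 to 16.7) at 10 to 19. At 20 or more it was 2.73 points (-1.80 to 7.43), an interval that includes 0. Shared loops also had higher wild-type RAD21 counts than loops with RAD21 only, whose median was 4 (quartiles 2 and 6). Between loops of similar RAD21 count, a comparison made after the data were seen, the difference was 11.6 points (5.90 to 17.6) at a count of 2, 12.4 points (6.96 to 17.8) at 3 to 4 and 18.4 points (14.1 to 22.5) at 5 to 9. It was 4.33 points (-0.287 to 8.48) at 10 to 19, an interval that includes 0, and 4.28 points (1.11 to 7.69) at 20 or more. Both ZNF143KO lists held 1045 shared loops (60.5%, against 20% of all CTCF loops), the CTCF list alone 296 (17.1%, against 19.1%), the RAD21 list alone 166 (9.62%, against 10.1%) and neither of them 219 (12.7%, against 50.8%).

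Among the loops found, a shared loop matched 1.50 loops of the CTCF list of ZNF143KO cells on average, against 1.19 for a loop with RAD21 only. The part of this in the higher share found was not tested. With no extension of the anchors, 71.3% of the 1126 loops that then met the rule were found for CTCF, and the difference from loops with RAD21 only was 23.0 points (20.1 to 25.9).

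The shared loops that were missing for CTCF in ZNF143KO cells had been weaker before. Their median wild-type counts were 3 for CTCF, 3 for RAD21 and 2 for ZNF143, against 6, 7 and 3 for the loops found again, and their median span was 124.2 kb against 102.0 kb. Of the 385 missing loops, 218 (56.6%, 51.6 to 61.5) still had both anchors in use by other loops of that list, 144 had 1 anchor in use and 23 had none. Among the missing loops with RAD21 only, both anchors were in use at 45.9% (44.2 to 47.5), and among those with ZNF143 only at 54.4% (49.7 to 59.0), an interval that overlaps that of the shared loops.

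**Figure D3:**
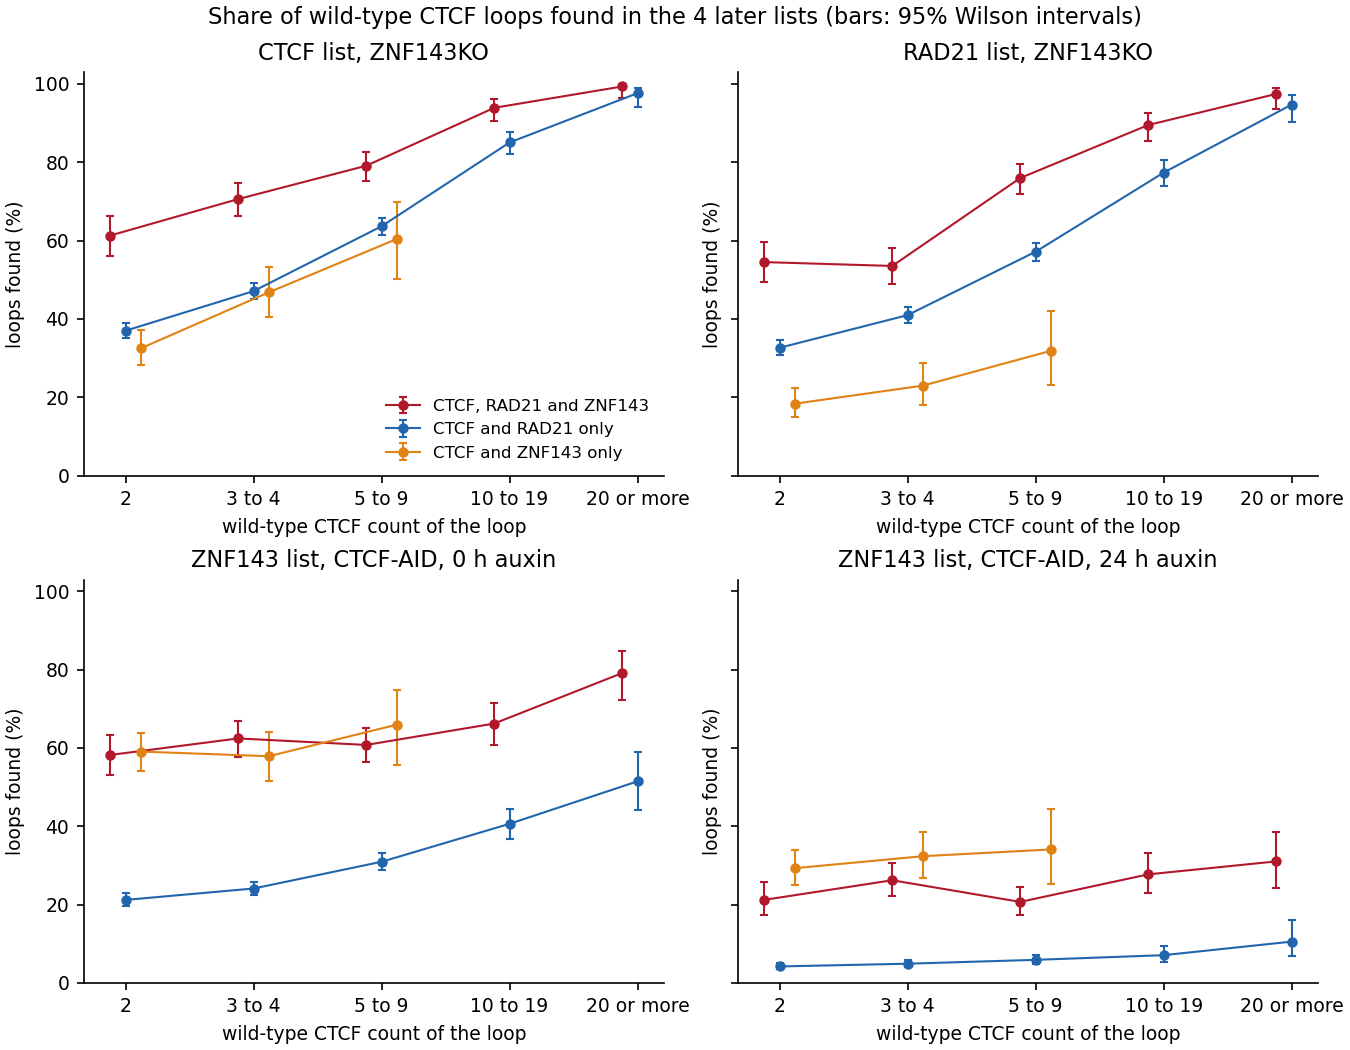
Share of wild-type CTCF loops found in each of the 4 later lists, by wild-type CTCF count, for shared loops, loops with RAD21 only and loops with ZNF143 only (points with 95% Wilson intervals, classes of at least 20 loops). In the ZNF143KO lists shared loops lie above the others until the classes with RAD21 meet at 20 counts or more (157 of 158 and 167 of 171 for CTCF), and in the CTCF-AID lists their intervals overlap those of the loops with ZNF143 only at 0 h, and lie above those of the loops with RAD21 only at both times. By the rule, loops with RAD21 only had no wild-type ZNF143 loop.

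Within the shared loops, the share found in ZNF143KO cells did not follow the order of the wild-type ZNF143 counts. The share found in the CTCF list of ZNF143KO cells was 73.4% (70.4 to 76.2) of the 910 loops with a ZNF143 count of 2, 84.6% (81.2 to 87.5) of the 506 loops with 3 to 4 and 79.03% (74.2 to 83.2) of the 310 loops with 5 or more. In this list the class of 3 to 4 ZNF143 counts was the highest at each CTCF count below 20. The class of 5 or more was the lowest at a CTCF count of 2, with 58.7% (51.98 to 65.1), 70.97% (61.1 to 79.2) and 54.2% (40.3 to 67.4) for the 3 ZNF143 classes, and it lay between the others at 5 to 9 CTCF counts, with 75%, 85.4% and 80.3%. In the RAD21 list of ZNF143KO cells the shares over all CTCF counts were 65.8%, 77.7% and 70.6%, again highest at 3 to 4.

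Counts of the loops that were found again were mostly lower in ZNF143KO cells. The median ratio of ZNF143KO to wild-type count was 0.714 for CTCF at 1341 shared loops (quartiles 0.429 and 1.25) and 0.500 for RAD21 at 1211 (0.341 and 0.833). The totals of those lists had ratios of 0.573 and 0.450. Over all wild-type CTCF loops found again the median was 0.818, and over all wild-type RAD21 loops found again (34.1% of that list) it was 0.667. CTCF ratios and the list-wide RAD21 ratio set a loop's own wild-type count against its best ZNF143KO match, which can raise them. The RAD21 ratio of shared loops used best matches on both sides, and so built it was 0.600 for loops with RAD21 only. At identical anchors, a check added after the data were seen, the CTCF median was 0.545 (0.500 to 0.625) at 818 shared loops. It was 0.667 for loops with RAD21 only under both kinds of match. A loop with a wild-type count of 2 can be found only at a ratio of 1 or more, so ratios were read at fixed wild-type counts. At 20 CTCF counts or more the median was 0.316 (95% interval of the median 0.292 to 0.339) for 157 shared loops and 0.273 (0.250 to 0.303) for 167 loops with RAD21 only. At 10 to 19 counts it was 0.455 (0.412 to 0.500) and 0.333 (0.308 to 0.357), and these intervals do not overlap.

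For RAD21 at 20 counts or more, the median was 0.304 (0.284 to 0.333) for 214 shared loops and 0.250 (0.238 to 0.273) for 255 loops with RAD21 only, and none of either class had a higher count in ZNF143KO cells. When only ZNF143KO loops at identical anchors were used, a check added after the data were seen, the CTCF medians at 10 to 19 counts were 0.412 (0.385 to 0.444) and 0.300 (0.286 to 0.333). At 20 or more they were 0.304 (0.273 to 0.333) and 0.273 (0.250 to 0.304), with overlapping intervals. The RAD21 medians at 20 or more were then 0.271 (0.220 to 0.304) for 67 shared loops and 0.232 (0.200 to 0.250) for 92 loops with RAD21 only, whose intervals overlap as well. The CTCF ratios of the classes were thus apart at 10 to 19 counts under both kinds of match, and their intervals overlapped at 20 or more under both. For RAD21 the ratios at 10 to 19 RAD21 counts were also apart under both, with 0.400 (0.375 to 0.455) and 0.308 (0.300 to 0.333) at extended and 0.400 (0.357 to 0.455) and 0.308 (0.273 to 0.333) at identical anchors. At 20 or more they were apart with the extended anchors only.

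The shared loops were then looked up in the ZNF143 lists from CTCF-AID cells before and after auxin. Without auxin 1092 shared loops were found (63.3%, 60.97 to 65.5), against 24.7% of all wild-type CTCF loops and 59.6% of all wild-type ZNF143 loops. After 24 h of auxin 420 were found (24.3%, 22.4 to 26.4), against 6.88% of all CTCF loops and 41.2% of all ZNF143 loops. Loops with ZNF143 only were found at 59.7% (56.1 to 63.2) and 31.1% (27.8 to 34.5), and loops with RAD21 only at 26.9% and 5.22%. By the rule, loops with RAD21 only had no wild-type ZNF143 loop, which favours lower shares in ZNF143 lists. The 24 h list was also the shorter, with 20587 loops against 40405 at 0 h.

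Of the 1092 shared loops found at 0 h, 388 were found at 24 h (35.5%, 32.7 to 38.4), against 21.7% of all wild-type CTCF loops found at 0 h. The share was 13.4% (11.97 to 15.0) for loops with RAD21 only, 14.2% (12.4 to 16.2) for loops in neither other list and 46.1% (41.5 to 50.8) for loops with ZNF143 only. Another 32 shared loops were found at 24 h only (1.85%, against 1.53% of all CTCF loops). The 24 h share depended on how anchors were matched. It was 15.4% of the loops that met the rule without extension and 14.8% of those with identical anchors in the wild-type lists. When later loops needed at least 3 counts, 47.3% of shared loops were found at 0 h and 17.4% at 24 h. Counts at these 388 loops were lower at 24 h in the middle of the distribution, with a median ratio of 24 h to 0 h of 0.770 (quartiles 0.500 and 1.11). Over all 0 h loops found at 24 h (24.7% of that list) the median ratio was 1, and the list totals had a ratio of 0.719. That list-wide median set a loop's own 0 h count against its best 24 h match, which can raise it. The ratio of shared loops used best matches at both times, so the 2 medians are not comparable. Built like that of shared loops, the median was 0.8 for the 261 loops with RAD21 only found at both times. It was 1 for the 203 with ZNF143 only and 1 for the 182 in neither other list.

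The comparison was repeated from the side of the ZNF143 list, which allows ZNF143 loops that are and are not listed for the other proteins to be set side by side. Of 1516 wild-type ZNF143 loops matching a shared loop, 968 were found at 0 h (63.9%), and 40.4% of those (37.3 to 43.5) were found at 24 h. Of 9268 ZNF143 loops in neither the CTCF nor the RAD21 list, 5446 were found at 0 h (58.8%) and 62.4% of those (61.1 to 63.7) at 24 h. The remaining 1197 ZNF143 loops, which were listed for CTCF or RAD21 but matched no shared loop, lay between, with 50.0% (46.4 to 53.6) of 726. Over all ZNF143 loops found at 0 h the share was 58.2%. The share of loops matching a shared loop was lower than that of loops in neither other list, by a difference of -22.0 points (-25.3 to -18.6). At 24 h, whether or not they were found at 0 h, 27.4% and 44.5% of these sets were found.

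That difference had the same direction in each class of ZNF143 count and of span tried. By count it was -21.5 points (-26.1 to -16.7) at a count of 2, -25.2 points (-31.2 to -18.9) at 3 to 4, -11.8 points (-20.4 to -3.65) at 5 to 9, -13.4 points (-26.01 to -2.00) at 10 to 19 and -15.1 points (-31.9 to -1.73) at 20 or more. By span it was -11.04 points (-17.7 to -4.33) at 20 to 50 kb and -31.5 points (-37.5 to -25.0) at 100 to 200 kb. For loops in neither other list the rate lay between 58.04% and 64.4% in all 6 span classes. For loops matching a shared loop the rate was 51.3% (45.3 to 57.3) among those of 20 to 50 kb but 31.6% (25.1 to 38.9) among those of 200 to 500 kb, so the longer ones were missing more often. For the remaining ZNF143 loops the rate was 55.9% (49.3 to 62.3) among those of 20 to 50 kb, 38.4% (29.9 to 47.6) among those of 200 to 500 kb and 53.8% (29.1 to 76.8) among the 13 of 500 kb to 1 Mb. At 5 to 9 ZNF143 counts their rate, 60.1%, was close to the 61.4% of loops matching a shared loop.

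**Figure D4:**
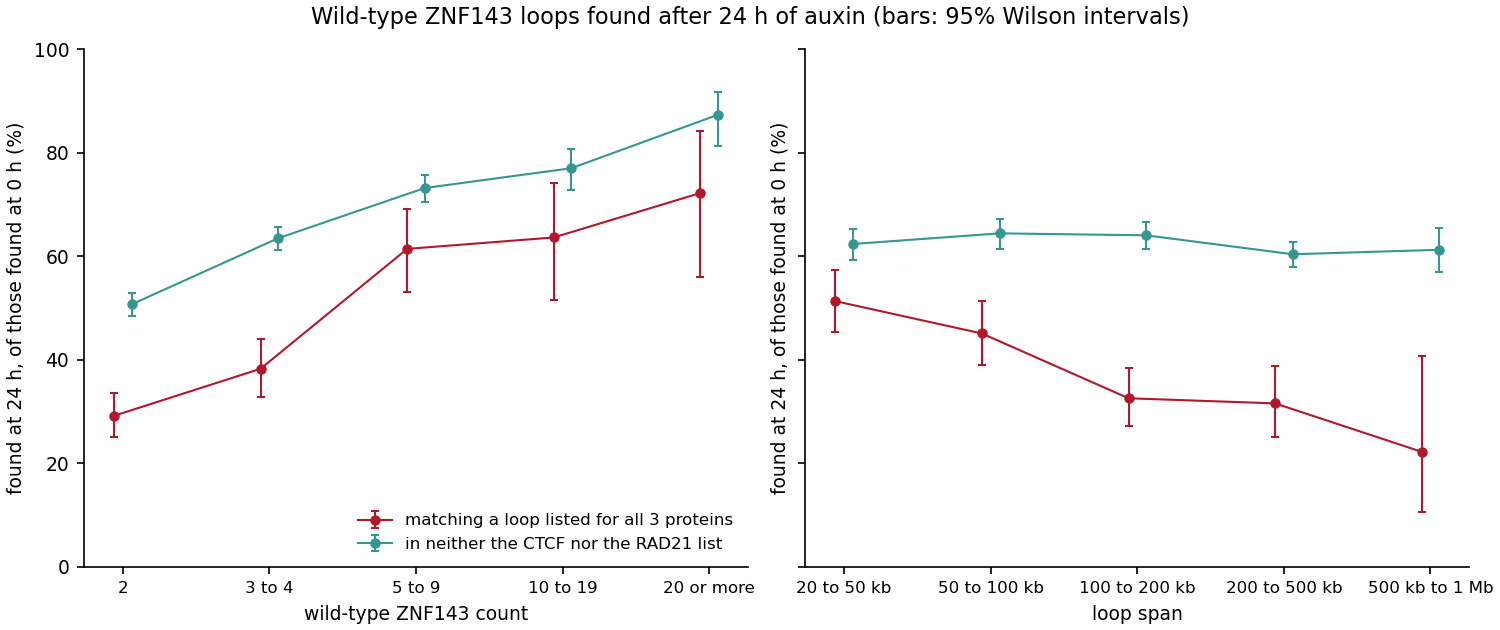
Share of wild-type ZNF143 loops found at 24 h of auxin among those found at 0 h, by wild-type ZNF143 count (left) and by span (right), for loops matching a shared loop and for loops in neither the CTCF nor the RAD21 list (points with 95% Wilson intervals). The shared loops lie lower in every class drawn, and by span the 2 sets are closest at 20 to 50 kb (51.3% and 62.4%).

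Shared loops found at both times had more ZNF143 signal and were shorter than those found at 0 h only. Their median wild-type ZNF143 count was 4 against 2, the ratio of ZNF143 to CTCF count 0.750 against 0.500, and the span 74.3 kb against 111.7 kb, while CTCF and RAD21 medians were close (5.50 and 5, 6 and 6). By ZNF143 count, 15.4% (13.2 to 17.9) of shared loops with a count of 2 were found at 24 h, 23.7% (20.2 to 27.6) of those with 3 to 4 and 51.6% (46.1 to 57.1) of those with 5 or more. By CTCF count the share lay in a narrower range, between 20.7% (17.3 to 24.5) at 5 to 9 counts and 31.0% (24.3 to 38.6) at 20 or more. Among the 1306 shared loops not found at 24 h, 166 (12.7%, 11.01 to 14.6) still had both anchors in use in that list and 405 (31.0%) had neither. Neither was in use at 20.7% of the missing loops with ZNF143 only and 53.3% of those with RAD21 only. Both were in use at 13.0% of the missing loops with ZNF143 only and 7.79% of those with RAD21 only. At 0 h both anchors were in use at 53.0% of the 634 shared loops not found, against 59.6% for loops with ZNF143 only and 36.9% for loops with RAD21 only.

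Taking the 4 later lists together, 240 shared loops (13.9%, 12.4 to 15.6) were found in all of them, against 2.23% of all wild-type CTCF loops. The share was 1.97% (1.68 to 2.32) of those with RAD21 only and 3.26% (2.20 to 4.80) of those with ZNF143 only. By the rule, loops with RAD21 only had no wild-type ZNF143 loop, and loops with ZNF143 only no wild-type RAD21 loop. Both antibodies are among the later lists, so the rule itself favours the shared loops here. The commonest outcome was to be found in both ZNF143KO lists and at 0 h but not at 24 h, at 478 shared loops (27.7%), against 6.85% of all CTCF loops and 9.62% of those with RAD21 only. The share in all 4 was 8.88% without extension, 7.36% when later loops needed 3 counts and 23.6% when wild-type loops did. Another 308 were in both ZNF143KO lists and in neither CTCF-AID list (17.8%, against 10.6% of all CTCF loops and 19.1% of those with RAD21 only). In none of the 4 lists were 96 (5.56%, 4.58 to 6.75), against 42.6% of all CTCF loops. The 240 loops in every list had median wild-type counts of 9 for CTCF, 9.5 for RAD21 and 4 for ZNF143 and a median span of 70.5 kb, and the 96 loops in none had medians of 3, 3 and 2 and a span of 173.3 kb.

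Chromosome 19 was singled out after its values were seen, so they are a description only. Of its 174 shared loops 66.7% were found for CTCF in ZNF143KO cells against 78.9% elsewhere, and 56.3% against 71.7% for RAD21. Other chromosomes had shares as low, with 66.1% for CTCF on chromosome 8 and 52.4% for RAD21 on chromosome 9. For ZNF143 in CTCF-AID cells the shares on chromosome 19 were 83.9% at 0 h against 61.0% elsewhere and 39.7% at 24 h against 22.6%, while chromosomes 3 and 17 had 37.1% and 32.3% at 24 h. Its median counts were 4 for CTCF, 4 for RAD21 and 3 for ZNF143 against 5, 6 and 2 elsewhere. By CTCF count, the lower ZNF143KO shares were seen below 20 counts, by -0.652 (10 to 19) to -17.2 points (5 to 9) for CTCF and by -6.45 (2) to -24.4 points (5 to 9) for RAD21. At 20 or more, with 10 loops on chromosome 19, they were higher by 0.676 and 2.70 points. The 0 h share was higher at each CTCF count, by 11.6 to 29.6 points. The 24 h share was higher by 6.74 to 29.1 points below 20 counts and differed by -1.08 points at 20 or more. The 95% intervals of these differences excluded 0 only at 3 to 4 and 5 to 9 counts in both ZNF143KO lists. They excluded 0 only at 2, 3 to 4 and 5 to 9 counts at 0 h, and only at 2 and 3 to 4 counts at 24 h.

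The shared loop with the highest CTCF count joined chromosome 16, 55498344 to 55499850, to 55735210 to 55738250, over 237.6 kb. Its wild-type counts were 401 for CTCF, 432 for RAD21 and 4 for ZNF143. In ZNF143KO cells they were 70 and 78, and in CTCF-AID cells ZNF143 had a count of 8 at 0 h and no listed loop at 24 h. Its wild-type CTCF and RAD21 counts were the highest of the wild-type CTCF and RAD21 lists, while its wild-type ZNF143 count lay at the upper quartile of the ZNF143 list.

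The next loop, on chromosome 5 from 140254134 to 140256182 and from 140418923 to 140421630, had wild-type counts of 261 for CTCF, 378 for RAD21 and 2 for ZNF143, and 37 and 65 in ZNF143KO cells. For ZNF143 it had a count of 8 at 0 h and was not listed at 24 h. The third, on chromosome 17 from 43212095 to 43213674 and from 43274551 to 43276348, had counts of 212, 130 and 6. It was found in every later list, with 99 for CTCF and 36 for RAD21 in ZNF143KO cells and 13 and 8 for ZNF143 at 0 h and 24 h. Over the 8 shared loops with the highest CTCF counts (113 to 401), ZNF143 counts lay between 2 and 8. All 8 were found in both ZNF143KO lists, 7 at 0 h and 3 at 24 h.

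Other loops were listed mainly for ZNF143. The highest ratio of ZNF143 to CTCF count, 44.5, was at a loop on chromosome 19, from 45905134 to 45908129 and from 45987998 to 45989832, with counts of 2 for CTCF, 5 for RAD21 and 89 for ZNF143. Its RAD21 partner was reached only through an extension of 4979 bp, just inside the rule. In ZNF143KO cells it had counts of 5 for CTCF and 7 for RAD21, and ZNF143 counts were 97 at 0 h and 192 at 24 h. The second, on chromosome 17 from 73851337 to 73852731 and from 73890848 to 73892199, had counts of 2, 8 and 68. It had a CTCF count of 5 and no listed RAD21 loop in ZNF143KO cells, and ZNF143 counts of 33 at 0 h and 63 at 24 h. Both were listed after auxin with the higher of the 2 CTCF-AID counts, whereas the 8 strongest CTCF loops had a ZNF143 count of at most 8 there or were not listed.

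Of the 45 shared loops in neither ZNF143KO list but in both CTCF-AID lists (2.61%, against 1.42% of all CTCF loops and 13.4% of those with ZNF143 only), the strongest for CTCF joined chromosome 3, 47554544 to 47556064, to 47829998 to 47831360. Its wild-type counts were 13 for CTCF, 8 for RAD21 and 21 for ZNF143, and ZNF143 had 17 at 0 h and 5 at 24 h. The second, on chromosome 19 from 36205381 to 36209528 and from 36422112 to 36423406, had counts of 9, 4 and 8, and a ZNF143 count of 42 at both times. Both loops were thus listed for ZNF143 with and without auxin, and for neither CTCF nor RAD21 in ZNF143KO cells.

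**Figure D5:**
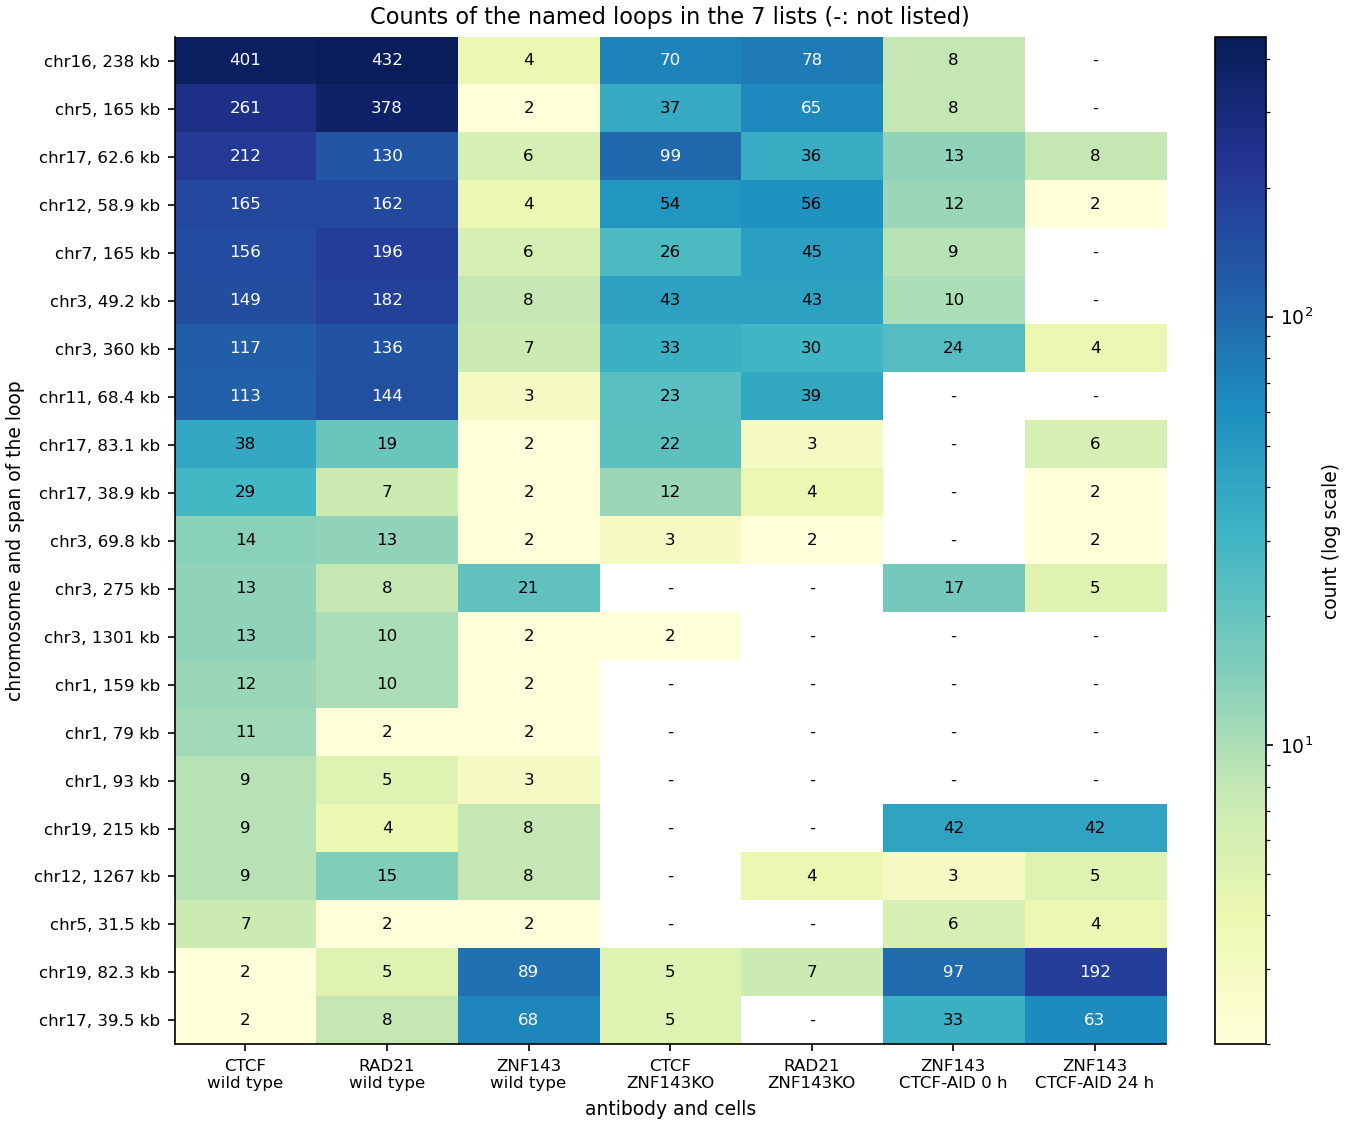
Counts of the named shared loops in the 7 lists, 1 row per loop ordered by wild-type CTCF count and labelled with chromosome and span, with a dash where a loop is not listed (colour on a log scale). The rows at the top, with CTCF counts of 113 to 401, have ZNF143 counts of 2 to 8, and the last 2 rows, with CTCF counts of 2, have ZNF143 counts of 89 and 68.

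The 3 strongest shared loops found in none of the later lists lay on chromosome 1. The first joined 85808040 to 85811135 and 85968115 to 85969496 and had counts of 12 for CTCF, 10 for RAD21 and 2 for ZNF143. The other two had CTCF counts of 11 and 9. Of the 296 shared loops with 10 to 19 CTCF counts, 2 were in none of the later lists, against 3.42% of all CTCF loops of that strength (33 of 964) and 4.01% of those with RAD21 only. Among the 32 loops found at 24 h but not at 0 h, the strongest lay on chromosome 17, from 39735423 to 39736923 and from 39818359 to 39820244, with counts of 38 for CTCF, 19 for RAD21 and 2 for ZNF143. It had 22 for CTCF and 3 for RAD21 in ZNF143KO cells, and a ZNF143 count of 6 at 24 h.

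The longest shared loop spanned 1301 kb on chromosome 3, from 187455731 to 187460793 and from 188758506 to 188760137. Its counts were 13 for CTCF, 10 for RAD21 and 2 for ZNF143, and of the later lists only the CTCF list of ZNF143KO cells held it, with a count of 2. The second longest, of 1267 kb on chromosome 12, from 32906618 to 32910016 and from 34174144 to 34175859, had counts of 9, 15 and 8. It was not found for CTCF in ZNF143KO cells and had a RAD21 count of 4 there, with ZNF143 counts of 3 at 0 h and 5 at 24 h.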

How the data were processed

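The data are 7 HiChIP loop lists, 1 per library. The deposited values are whole-number counts per loop, with totals that differ between lists. The submitters' processing notes name HiC-Pro and hg19. The loop caller, its filters and any pooling of runs are not given in the sources used here. Coordinates were used as deposited and are printed counted from 1.

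Loops were matched in Python 3.11.15 with numpy 2.4.6, pandas 2.3.3 and scipy 1.17.1. The matching was tested on simulated lists. Where a loop matched several loops, the highest count was taken. Intervals of medians came from binomial order statistics. Members, lists and classes were chosen with earlier results of these data known. Named loops are the 8 members with the highest CTCF count, the 3 strongest of each of 5 outcomes in the later lists, the 2 longest, and the 2 with the highest and the 2 with the lowest ratio of ZNF143 to CTCF count among loops with a summed count of at least 20, ties going to the shorter span. No genome or annotation of hg19 was used here, so no sequence, motif or gene is given.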

Additional observations from a re-analysis of the deposited data

How the results depend on the processing

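No paired analysis was possible because each group had 1 library. Identical anchors, the group of 32 loops left out and all 3 differences between classes were added after the data were seen. Of 105 values recomputed under 9 alternatives, 49 were within the 95% interval given for the result and 56 were beyond it. A direction was defined only for the count ratios and for the differences between classes, and none of these had the opposite direction. Why values moved was not tested. Leaving out the group of 32 loops moved none of 13 values beyond its interval.

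Without extension, 5.83% of CTCF loops were shared, and 71.3%, 65.7%, 52.4%, 15.4% and 8.88% of them were found in the ZNF143KO CTCF, ZNF143KO RAD21, 0 h, 24 h and all 4 lists. The CTCF ratio was 0.500 and the auxin difference (ZNF143 loops matching shared loops minus those in neither other list) -30.1 points. With 10 kb, these values were, in the same order, 11.8%, then 80.4%, 72.6%, 69.96%, 31.0% and 18.8%, then 0.833 and -16.9 points.

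With a minimum count of 3 in the wild-type lists, 6.38% were shared, with a median span of 94.3 kb, and 87.3%, 82.2%, 74.1%, 33.4% and 23.6% were found. The CTCF and RAD21 ratios were 0.631 and 0.444, and the differences from loops with RAD21 only were 20.97 and 20.8 points. With a minimum of 3 in the later lists, 62.1%, 53.4%, 47.3%, 17.4% and 7.36% were found, the ratios were 0.8 and 0.571, and the CTCF difference was 29.1 points.

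With 1 shared loop per ZNF143 loop, 6.91% were shared, 73.7%, 66.7%, 60.2% and 12.3% were found (ZNF143KO CTCF, ZNF143KO RAD21, 0 h, all 4), the CTCF ratio was 0.571 and the differences were 21.4 and 20.1 points. With spans of 40 kb to 1 Mb, 8.51% were shared, the median span was 131.8 kb and the auxin ratio 0.667. With counts summed over matching loops, the CTCF and auxin ratios were 0.875 and 0.655. With identical anchors, 2.10% were shared, the median span was 115.3 kb, 55.4%, 14.8% and 10.1% were found (0 h, 24 h, all 4), the CTCF and auxin ratios were 0.600 and 0.667 and the auxin difference was -32.9 points.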
